A study of Mus musculus with 9 samples.

Results

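Transcripts of 9 genes of the epidermal growth factor (EGF) family, 6 ligands and 3 receptors, were followed in mouse embryonic fibroblasts given p21 or p16. The ligand genes were Areg, Ereg, Hbegf, Btc, Tgfa and Nrg1, and the receptor genes Egfr, Erbb2 and Erbb3. They were chosen by name, with earlier results of these data known. All 9 were among the 24062 gene symbols of the count table. The cells were C57BL/6 embryonic fibroblasts, primary connective tissue cells that the labels call non-senescent in all groups, harvested on day 4 after lentiviral infection. The virus carried p21 (gene Cdkn1a) in 3 libraries, p16 (gene Cdkn2a) in 3 libraries and no insert (empty vector) in 3 libraries. Both p21 and p16 are inhibitors of cyclin-dependent kinases. The labels do not say whether replicates were separate cultures or embryos, so p-values measure the spread between these samples, which may be partly technical. Unless a replicate block is named, the fit leaves the replicate number out, so this spread includes differences between numbers that the groups share. With the number added to the edgeR fit as a block, 3 of the 9 genes were called with p16 (adjusted p under 0.05), and 0 without it.

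Ligands of this family are made as membrane-bound precursors that metalloproteinases cut from the cell surface. The freed ligand brings receptors together in pairs, and these tyrosine kinases then switch on the RAS-ERK and PI3K-AKT pathways, which drive proliferation, survival and wound repair. Areg, Tgfa and EGF itself bind EGFR; Hbegf, Btc and Ereg bind EGFR and ERBB4; Nrg1 binds ERBB3 and ERBB4. ERBB2 has no known ligand of its own and acts as the preferred partner of the others, while ERBB3 has a nearly inactive kinase and signals through its partners. Fibroblasts are known to respond to EGF through EGFR and to supply several of these ligands to neighbouring epithelium.

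Library totals ran from 44455730 to 63152239 counts, and 14223 genes passed the filter on low counts and were tested. Cdkn1a reached 1605 ± 172 CPM (counts scaled to library size, SD, n = 3) in p21 libraries, against 360.2 ± 12.8 CPM in empty vector libraries. Cdkn2a reached 1731 ± 179 CPM in p16 libraries, against 37.9 ± 3.86 CPM in empty vector libraries, and 46.5 ± 2.21 CPM in p21 libraries (log2 fold change of p21 over empty vector 0.29, edgeR adjusted p = 0.0111). Fibroblast markers were abundant in every library (summed level 28481 to 34051 CPM), with Col1a1 at 12632 to 15838 CPM, although Lum stayed under 1 CPM everywhere. Of 10 fibroblast markers 4 were higher and 2 lower with p21 (Pdgfra, log2 fold change -0.99, and Col3a1, -0.32), and 0 were called with p16. Over all tested genes 19.8% were called higher and 20.1% lower with p21, and 11.4% were called with p16. The part of these markers in the results below was not tested. The replicate 3 library of each group carried the X-inactivation transcript Xist at 181 to 251 CPM, against at most 6.96 CPM in the other 6 libraries. In bulk RNA, fewer cells of a type and less RNA per cell cannot be told apart.

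All 9 genes passed the filter, but Btc and Erbb3 had too few counts for a precise estimate, under 30 in every library. Btc had 12 to 28 counts and Erbb3 4 to 18. Tgfa (52 to 101 counts) and Areg (50 to 126 counts) were also sparse, with a counting error alone of 11.6% and 10.6% of their mean count. Nrg1 had 433 to 691 counts, and Erbb2, Egfr, Ereg and Hbegf had between 1825 and 16832. Of the exon bases of Nrg1 4.66%, of Ereg 3.42%, of Tgfa 1.82% and of Erbb2 0.173% are shared with a gene on the opposite strand, and without strand information such reads cannot be told apart.

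Per exon length, Hbegf was the most abundant of the 9, at 46.1 to 58.6 RPKM (CPM divided by the exon length in kilobases) over all libraries, above 94.3% of the tested genes with a known length. Ereg followed at 9.44 to 16.1 RPKM, then Erbb2 at 7.65 to 11.4 RPKM and Egfr at 8.17 to 10.8 RPKM. The ranges of these 3 overlapped when all libraries were pooled. Within single libraries, Ereg was above Egfr in 9 of 9 and above Erbb2 in 7 of 9, and Egfr was above Erbb2 in 3 of 3 p21, 0 of 3 p16 and 0 of 3 empty vector libraries. Areg (0.933 to 1.87 RPKM) and Nrg1 (0.854 to 1.06 RPKM) also overlapped, with Areg above Nrg1 in 8 of 9 libraries. Tgfa lay at 0.152 to 0.262 RPKM, Btc at 0.0455 to 0.104 RPKM and Erbb3 at 0.0151 to 0.0542 RPKM, and the last pair overlapped in range, with Btc above Erbb3 in 9 of 9 libraries. Of the summed RPKM of the 6 ligands, Hbegf made up 76.0 to 76.9% in p21 libraries, 77.6 to 78.7% in p16 libraries and 75.8 to 79.5% in empty vector libraries. Ereg made up 19.7 to 20.9% in p21 libraries, 16.8 to 19.1% in p16 libraries and 16.3 to 19.3% in empty vector libraries. These are levels of RNA, and say nothing of precursor, freed ligand or receptor protein.

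**Figure D1:**
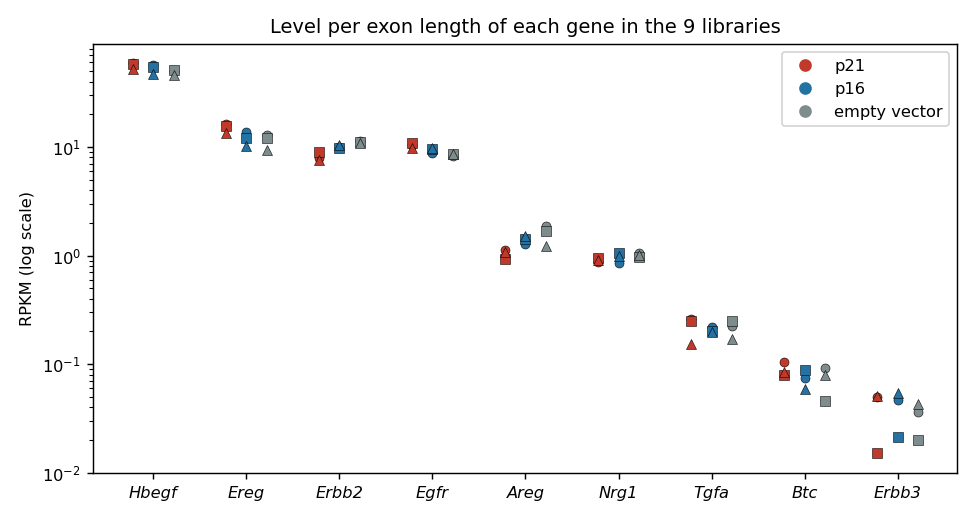
RPKM of each gene (log axis) in the 9 libraries, genes ordered by mean level. Colours mark p21, p16 and empty vector libraries, and circles, squares and triangles replicates 1, 2 and 3. Hbegf lies at 46.1 to 58.6 RPKM and Erbb3 at 0.0151 to 0.0542 RPKM; within a gene the 3 groups lie close together on this log scale.

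The other genes of the family were barely detected. Egf, the founding ligand, had 18 to 32 counts per library, and the neuregulin gene Nrg4 7 to 24. Epgn, which encodes the ligand epigen, had 0 to 10 counts, Nrg2 0 to 12, and Nrg3 2 counts in all 9 libraries together. Erbb4, the fourth receptor gene, had 0 to 6 counts. Egf and Nrg4 were tested and passed in no comparison, while Epgn, Nrg2, Nrg3 and Erbb4 did not pass the filter on low counts.

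The promoters of 5 of the 9 genes (Areg, Btc, Tgfa, Egfr and Erbb2) were taken from RefSeq's annotation of GRCm38.p6, from 250 bases before to 50 after the start. Promoters of the other genes, Hbegf and Ereg among them, are not reported here. Those of Areg, Egfr and Erbb2 are shown because these genes were called with p21, as described next, Egfr and Erbb2 in opposite directions. Capitals mark every match to 6 short motifs searched on both strands: the GC box GGGCGG, the cyclic AMP response element TGACGTCA, the TATA box TATAAA, the AP-1 motif TGANTCA, the cell cycle homology region TTTGAA and the E2F motif TTTCGCGC. The sequences read 5′ to 3′ on the plus strand, at chr5:91139349-91139648 for Areg, chr11:16751953-16752252 for Egfr and chr11:98412234-98412533 for Erbb2.
Areg: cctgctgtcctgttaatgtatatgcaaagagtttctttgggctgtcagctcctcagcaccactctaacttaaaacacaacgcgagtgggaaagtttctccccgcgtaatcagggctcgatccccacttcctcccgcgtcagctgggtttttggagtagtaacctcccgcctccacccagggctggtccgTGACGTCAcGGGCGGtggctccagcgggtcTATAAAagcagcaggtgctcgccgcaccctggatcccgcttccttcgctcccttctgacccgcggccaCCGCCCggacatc
Egfr: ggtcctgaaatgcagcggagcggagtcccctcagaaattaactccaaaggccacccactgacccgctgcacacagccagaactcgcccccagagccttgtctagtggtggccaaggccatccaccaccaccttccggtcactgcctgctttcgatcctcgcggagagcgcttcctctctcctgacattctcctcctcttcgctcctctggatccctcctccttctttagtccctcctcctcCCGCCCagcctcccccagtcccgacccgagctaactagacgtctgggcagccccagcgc
Erbb2: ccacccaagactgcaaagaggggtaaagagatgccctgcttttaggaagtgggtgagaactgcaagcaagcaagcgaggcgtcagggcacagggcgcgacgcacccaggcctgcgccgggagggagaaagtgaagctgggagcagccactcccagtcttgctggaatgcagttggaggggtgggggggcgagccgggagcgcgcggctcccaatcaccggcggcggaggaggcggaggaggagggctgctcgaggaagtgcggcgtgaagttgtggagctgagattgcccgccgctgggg
The Areg window held a cyclic AMP response element at -61 from the start, a GC box at -52, a TATA box at -31 and a further GC box past the start. None of these overlapped. Of 32851 promoter windows of this length 1.79% held the cyclic AMP response element, 13.6% the TATA box and 35.7% a GC box. The Egfr window held 1 GC box, at -9, and none of the other motifs. The Erbb2 window held none of the 6, although it was 66.0% G and C (62.3% for Egfr, 59.3% for Areg, and a median of 52.7% over all windows). AP-1 letters were found in 7.81% of windows, those of the cell cycle homology region in 17.9% and those of E2F in 0.323%. A match is a run of letters, not a site shown to be bound, and the search covers this window only.

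How these transcripts differ once p21 is supplied was read against the empty vector. Among the receptors Egfr rose and Erbb2 fell, and among the ligands Ereg and Hbegf rose and Areg fell. The 5 calls are 3 higher and 2 lower of 9 tested. Over all tested genes 39.9% were called in this comparison, 19.8% higher and 20.1% lower, so being called was common. The median absolute log2 fold change was 0.29 over the 9 genes and 0.19 over all tested genes. Statistics below are from edgeR's quasi-likelihood F test with Benjamini-Hochberg adjustment over all tested genes.

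**Figure D2:**
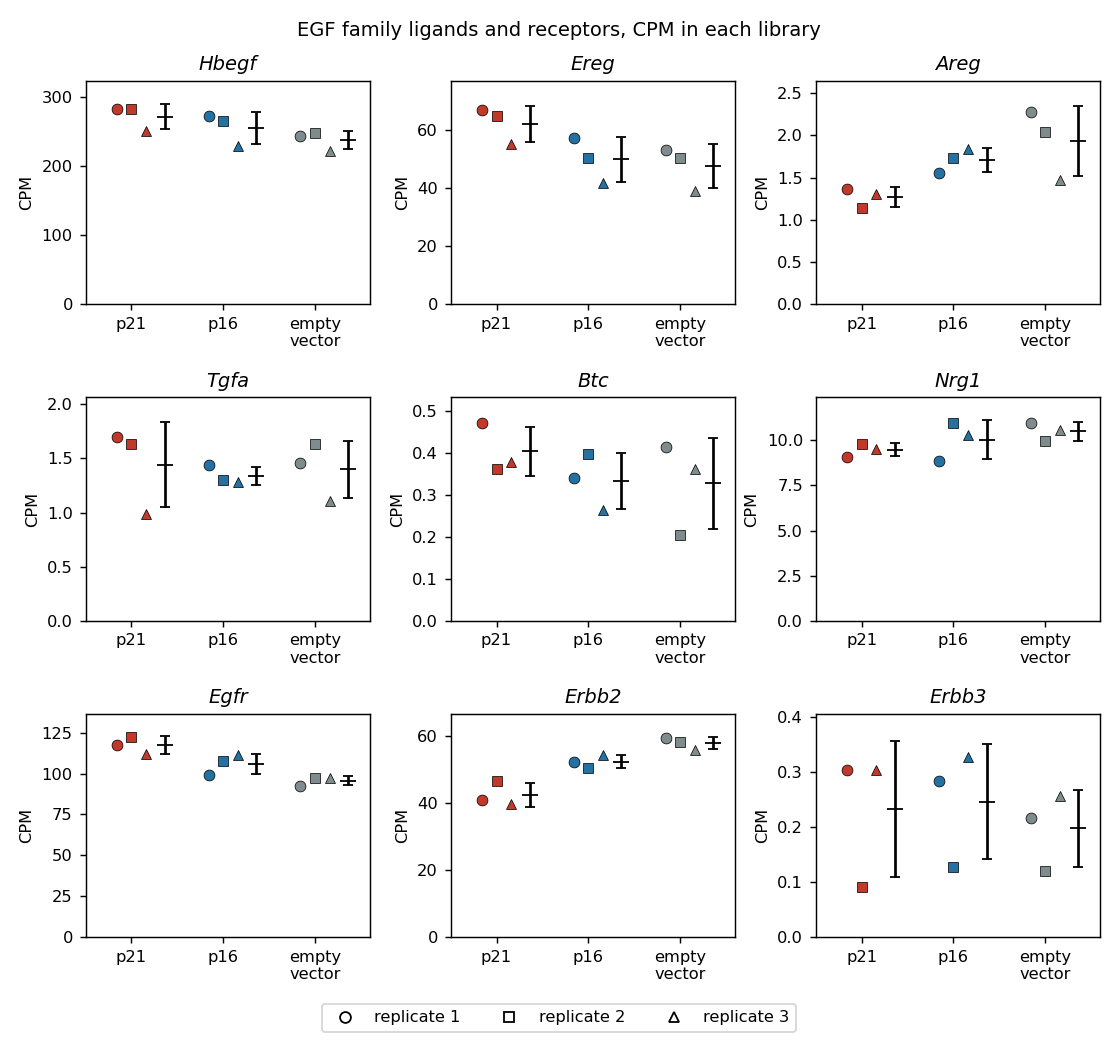
CPM of each gene in each library, with p21, p16 and empty vector libraries from left to right and markers for replicates 1, 2 and 3. Horizontal bars with whiskers are the mean and SD of 3 libraries. The p21 libraries lie above all empty vector libraries for Egfr, Ereg and Hbegf and below them for Erbb2, Areg and Nrg1.

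Egfr encodes the EGF receptor and lies on chromosome 11 (16752203 to 16918158, plus strand, GRCm38). It stood at 117.5, 122.6 and 111.8 CPM in p21 libraries 1 to 3, against 92.6, 97.5 and 97.1 CPM in empty vector libraries 1 to 3. Every p21 library was above every empty vector library, and the spread within each group was small. The difference was 1.23-fold (log2 fold change 0.29 ± 0.050 SE, edgeR adjusted p = 5.38e-04), and p21 was higher in all 3 same-numbered pairs, by 0.34, 0.33 and 0.20 on the log2 scale.

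Erbb2, whose product is the ligandless partner receptor, lies on the same chromosome (98412470 to 98437716, plus strand). It stood at 41.1, 46.7 and 39.8 CPM in p21 libraries, against 59.5, 58.3 and 56.0 CPM in empty vector libraries. The groups did not overlap, and the lowest empty vector library lay well above the highest p21 library. The log2 fold change was -0.45 ± 0.059 (SE, edgeR adjusted p = 7.81e-05), and p21 was lower in all 3 pairs. The calls of Egfr and Erbb2 held under every alternative run, among them each library left out in turn (highest edgeR adjusted p 0.00388 for Egfr and 7.02e-04 for Erbb2).

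The RPKM ratio of Egfr to Erbb2 is free of library scaling. It was 1.32, 1.21 and 1.29 in p21 libraries, 0.869, 0.979 and 0.940 in p16 libraries, and 0.716, 0.769 and 0.797 in empty vector libraries. The 3 groups did not overlap: Egfr exceeded Erbb2 per length in each p21 library and was below it in each p16 and empty vector library. Before division by length Egfr was the higher in every library (92.6 to 122.6 CPM, against 39.8 to 59.5 CPM for Erbb2). Which receptor is higher thus rests on the exon lengths used, 11326 bases for Egfr and 5210 for Erbb2. The lengths enter every ratio alike, so the differences between groups do not rest on them. This ratio was chosen after its values were seen and is given as a description.

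Erbb3, the partner receptor of the neuregulins, lies on chromosome 10 (128567523 to 128589652, minus strand). It had 18, 4 and 16 counts in p21 libraries, against 12, 7 and 12 counts in empty vector libraries. The groups overlapped widely. The 95% interval of the log2 fold change ran from -0.84 to 1.43 (estimate 0.29, edgeR adjusted p = 0.691), so that no difference was detectable at this depth. Schwann cells and their precursors are known for high Erbb3. Of 10 markers of that lineage 6 stayed under 1 CPM in every library, among them Sox10 (at most 0.280 CPM). The list summed to 37.7 to 46.6 CPM in p21 libraries, 39.6 to 47.4 CPM in p16 libraries and 41.2 to 44.8 CPM in empty vector libraries, most of it Egr2, which is also an early growth factor target and stands in the target list below. Of its 6 tested markers 3 were higher with p21 (Sox10, Ngfr and Mbp) and 0 lower, against 19.8% and 20.1% of all tested genes. Their part in the Erbb3 counts was not tested.

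Among the ligands, Hbegf encodes heparin-binding EGF-like growth factor and lies on chromosome 18 (36504927 to 36515805, minus strand). It stood at 283.5, 282.6 and 250.8 CPM in p21 libraries, against 244.1, 248.1 and 222.9 CPM in empty vector libraries. The lowest p21 library was only just above the highest empty vector library. In both groups the replicate 3 library was the lowest. The rise was 1.14-fold (log2 fold change 0.19 ± 0.066 SE, edgeR adjusted p = 0.0366), and p21 was higher by 0.22, 0.19 and 0.17 in the 3 pairs. Scaling by library totals ended the call (edgeR adjusted p = 0.110). It was also lost without empty vector replicate 1 (0.0611) or 3 (0.132), or p21 replicate 1 (0.130) or 2 (0.116). With the replicate number as a block the call was kept (edgeR adjusted p = 2.32e-05).

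Ereg, which encodes epiregulin, lies on chromosome 5 (91074622 to 91093646, plus strand). It stood at 66.6, 64.6 and 55.0 CPM in p21 libraries, against 53.2, 50.2 and 39.0 CPM in empty vector libraries. The groups did not overlap, and again replicate 3 was the lowest of each group. The rise was 1.31-fold (log2 fold change 0.39 ± 0.12 SE, edgeR adjusted p = 0.0252), and p21 was higher by 0.32, 0.36 and 0.50 in the 3 pairs. The call was lost without empty vector replicate 3 (adjusted p = 0.0910), p21 replicate 1 (0.0933) or p21 replicate 2 (0.0728). It was kept with the replicate block (edgeR adjusted p = 1.25e-07).

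Areg encodes amphiregulin and is the neighbour of Ereg, 46.0 kb downstream on the same strand (91139599 to 91148432). Its promoter window held the cyclic AMP response element shown above. Areg went the other way, with 81, 50 and 69 counts (1.36, 1.13 and 1.31 CPM) in p21 libraries, against 126, 119 and 69 counts (2.27, 2.04 and 1.47 CPM) in empty vector libraries. The groups did not overlap, although empty vector replicate 3 came close to the p21 libraries. The log2 fold change was -0.60 ± 0.20 (SE, edgeR adjusted p = 0.0266), the largest called change of the 9 genes, and the pairs differed by -0.72, -0.82 and -0.16. The call was lost without empty vector replicate 1 (adjusted p = 0.111), empty vector replicate 2 (0.0786) or p21 replicate 2 (0.0766). It was kept with the replicate block (edgeR adjusted p = 0.0158).

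Epgn, Ereg, Areg and Btc lie in that order on chromosome 5, and with p21 Ereg rose while Areg fell. The RPKM ratio of Ereg to Areg was 14.4, 16.8 and 12.3 in p21 libraries, 10.9, 8.55 and 6.69 in p16 libraries, and 6.88, 7.24 and 7.78 in empty vector libraries. The p21 libraries lay above all others, and the p16 and empty vector libraries overlapped. This ratio, too, was chosen after its values were seen.

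**Figure D3:**
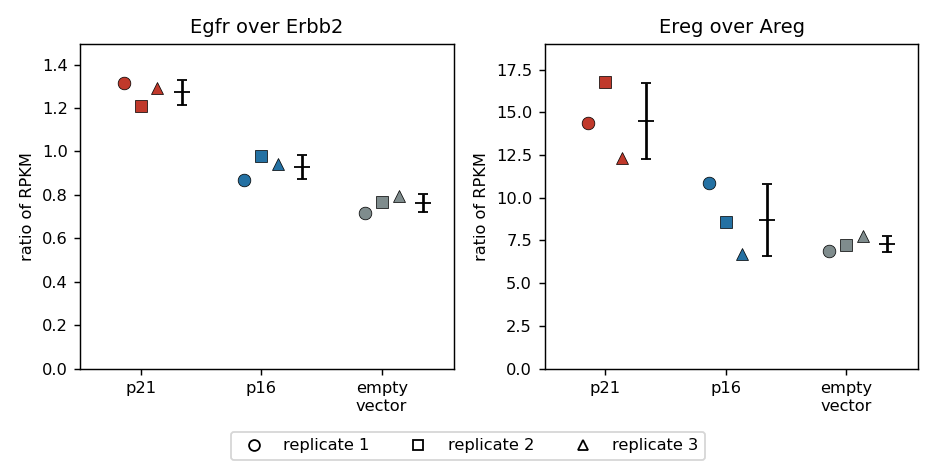
Ratios of RPKM inside each library for Egfr over Erbb2 (left) and Ereg over Areg (right), with p21, p16 and empty vector libraries from left to right; bars with whiskers are the mean and SD of 3 libraries. Egfr over Erbb2 lies at 1.21 to 1.32 in p21 libraries, 0.869 to 0.979 in p16 libraries and 0.716 to 0.797 in empty vector libraries.

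Btc, which encodes betacellulin, lies 209 kb beyond Areg on the opposite strand (91357261 to 91402994). It had 28, 16 and 20 counts in p21 libraries, against 23, 12 and 17 counts in empty vector libraries. The groups overlapped, and the log2 fold change of 0.32 had a 95% interval of -0.44 to 1.07 (edgeR adjusted p = 0.499). Tgfa, which encodes transforming growth factor alpha, lies on chromosome 6 (86195223 to 86275719, plus strand). It had 101, 72 and 52 counts in p21 libraries, against 81, 95 and 52 counts in empty vector libraries. Here too the groups overlapped, with a 95% interval of -0.47 to 0.54 (edgeR adjusted p = 0.925).

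Nrg1 encodes neuregulin 1, whose many isoforms are summed in 1 row of the table, and lies on chromosome 8 (31814551 to 32884029, minus strand). It stood at 9.09, 9.82 and 9.50 CPM in p21 libraries, against 10.97, 9.96 and 10.55 CPM in empty vector libraries. The p21 libraries were all lower, but the highest of them lay next to the lowest empty vector library. The difference did not pass the test (log2 fold change -0.15, 95% interval -0.34 to 0.04, edgeR adjusted p = 0.200). In all, 6 of the 9 genes showed no overlap between p21 and empty vector libraries, a pattern that 49.1% of all tested genes had.

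Macrophages and epithelial cells are also known sources of Areg, Ereg and Hbegf. Of 9 leukocyte markers with a row, 3 stayed under 1 CPM everywhere, among them Ptprc (at most 0.890 CPM) and Cd3e, which had no counts. The list summed to 15.1 to 16.3 CPM in p21 libraries, 11.8 to 17.7 CPM in p16 libraries and 9.97 to 13.4 CPM in empty vector libraries. Of its 7 tested markers 3 were higher with p21 (Csf1r, log2 fold change 0.86, Tyrobp, 1.23, and Ptprc, 0.99) and 0 lower. Of 10 epithelial markers 6 stayed under 1 CPM, among them Epcam (at most 0.113 CPM), Cdh1 (at most 0.157 CPM) and Krt5 (at most 0.0900 CPM). That list, carried by Krt19 and Krt18, summed to 68.2 to 83.3 CPM in p21 libraries, 67.2 to 82.0 CPM in p16 libraries and 60.3 to 78.0 CPM in empty vector libraries. Of its 5 tested markers 2 were higher with p21 (Cldn4 and Krt18) and 0 lower. Endothelial markers (5.30 to 9.80 CPM summed over all libraries; 0 of 5 tested called with p21) and myoblast markers (1.98 to 3.86 CPM; 1 of 2, Chrna1, higher with p21 and with p16) were low. Over all tested genes 19.8% were called higher and 20.1% lower with p21, and 5.80% higher with p16. The part of all these cell types in the ligand counts was not tested.

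**Figure D4:**
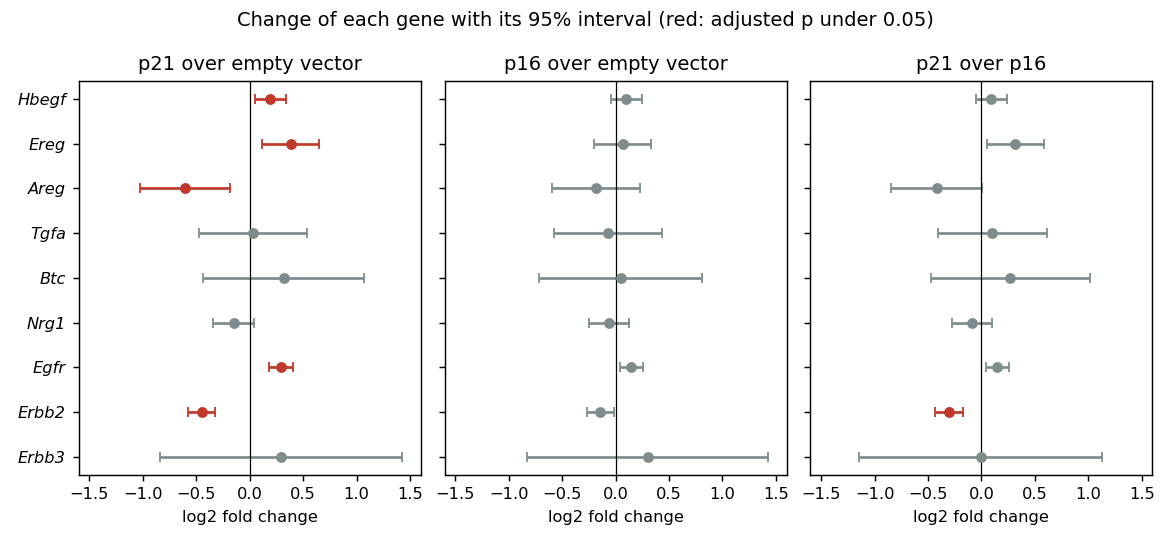
Log2 fold change of each gene with its 95% interval for p21 over empty vector, p16 over empty vector and p21 over p16; red marks an adjusted p under 0.05. With p21, Egfr, Ereg and Hbegf lie right of 0 and Erbb2 and Areg left of it, while the intervals of Btc and Erbb3 span more than 1 log2 unit in every panel.

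The same question was put to p16, with the same empty vector libraries as controls. None of the 9 genes passed the edgeR test (11.4% of all tested genes did, 5.80% higher and 5.56% lower); 2, Egfr and Erbb2, had an unadjusted p under 0.05. DESeq2 called 1 (Egfr, adjusted p = 0.0410) and limma-voom 0. With the replicate number as a block 3 passed in edgeR: Egfr (adjusted p = 0.0119), Hbegf (0.0276) and Erbb2 (0.0431). Egfr stood at 98.9, 107.7 and 111.2 CPM in p16 libraries, against 92.6, 97.5 and 97.1 CPM in empty vector libraries. Its groups did not overlap (log2 fold change 0.15 ± 0.050 SE, edgeR adjusted p = 0.0795), and it was called without p16 replicate 1 (0.0411). Erbb2 stood at 52.4, 50.6 and 54.4 CPM in p16 libraries, against 59.5, 58.3 and 56.0 CPM in empty vector libraries. These did not overlap either (-0.14 ± 0.058, edgeR adjusted p = 0.137). Non-overlap was found for these 2 of the 9 genes, and for 32.7% of all tested genes.

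Hbegf stood at 272.5, 265.1 and 229.2 CPM in p16 libraries, Ereg at 57.2, 50.4 and 41.7 CPM and Areg at 1.55, 1.73 and 1.83 CPM. All 3 overlapped with the empty vector libraries, and replicate 3 was again the lowest for Hbegf and Ereg. The 95% interval of the log2 fold change was -0.04 to 0.25 for Hbegf, -0.20 to 0.34 for Ereg and -0.60 to 0.23 for Areg. Nrg1 stood at 8.84, 10.99 and 10.31 CPM in p16 libraries (95% interval -0.25 to 0.13). Tgfa had 76, 82 and 63 counts, Btc 18, 25 and 13, and Erbb3 15, 8 and 16 in p16 libraries. Each overlapped with the empty vector libraries, and their 95% intervals were -0.58 to 0.44, -0.72 to 0.81 and -0.83 to 1.43 in that order.

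Set directly against p16, p21 gave 1 called gene of 9, Erbb2, which was lower with p21 (13.1% of all tested genes were called, 6.15% higher and 6.91% lower). Erbb2 stood at 41.1, 46.7 and 39.8 CPM in p21 libraries, against 52.4, 50.6 and 54.4 CPM in p16 libraries, with no overlap (log2 fold change -0.30 ± 0.059 SE, edgeR adjusted p = 0.00510). The call held in every alternative run (highest adjusted p 0.0278). Egfr and Areg did not overlap between these groups either, as was true of 31.2% of all tested genes. Egfr was 0.15 ± 0.050 higher (edgeR adjusted p = 0.0715), a difference called with the replicate block (0.00901), by DESeq2 (0.0345), without p16 replicate 3 (0.0492) and without p21 replicate 3 (0.0347). Areg differed by -0.42 with a 95% interval of -0.85 to 0.01 (edgeR adjusted p = 0.190). Ereg overlapped (0.32 ± 0.12, edgeR adjusted p = 0.113), yet p21 was higher in all 3 pairs, by 0.22, 0.36 and 0.40, and the replicate block called it (8.07e-06). The block also called Hbegf (0.09, adjusted p = 0.0353). Egfr, Ereg, Hbegf and Areg thus passed the threshold with p21 and not with p16. Their changes were not shown to differ between p21 and p16 in the edgeR fit of all libraries without the block. For Btc, Tgfa, Nrg1 and Erbb3 the edgeR adjusted p was 0.578 or more.

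Ereg also varied with the replicate number. In replicate 3 it was 0.838 times the mean of replicates 1 and 2 among p21 libraries, 0.775 times among p16 libraries and 0.754 times among empty vector libraries. For Hbegf these ratios were 0.886 with p21, 0.852 with p16 and 0.906 with the empty vector. Erbb3 stood at 1.54 times with p21, 1.59 times with p16 and 1.52 times with the empty vector, on few counts. Tgfa, also sparse, stood at 0.592 times with p21, 0.937 times with p16 and 0.719 times with the empty vector. Areg stood at 1.05, 1.12 and 0.683 times in that order, and Btc at 0.910, 0.718 and 1.17 times. Egfr, Erbb2 and Nrg1 stayed between 0.908 and 1.08 times in every group. Replicate 3 of each group is also the library rich in Xist, and the labels do not say what the number stands for.

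By centred log2 CPM over the 9 libraries, the genes most like Erbb2 were Paxip1, Zc3hc1 and Abca7, with root mean square differences of 0.048, 0.052 and 0.054, against a median of 0.24 over all tested genes. Their log2 fold changes were -0.36, -0.40 and -0.40 with p21 and -0.15, -0.13 and -0.15 with p16. Among the genes most like Ereg were Cav1 and Sbsn, with differences of 0.050 and 0.061, against a median of 0.29. Theirs were 0.38 and 0.44 with p21 and 0.13 and 0.04 with p16. Erbb2 and Ereg were taken because theirs were the largest called changes among the members with a mean log2 CPM of at least 1. The genes like them were picked by these same libraries, so their small differences and similar fold changes follow from that choice.

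Other genes of the pathway were read from 4 lists, also chosen with earlier results of these data known. Of 9 genes that cut or help to cut the ligand precursors, 4 rose and 1 fell with p21 (median log2 fold change 0.08, and 0.00 over all tested genes, of which 19.8% were called higher and 20.1% lower). Metalloproteinase genes led these: Adam15 stood at 182.6 ± 6.49 CPM in p21 libraries, against 118.9 ± 1.42 CPM in empty vector libraries (0.62 ± 0.035, edgeR adjusted p = 1.17e-07). Adam9 stood at 406.2 ± 12.7 CPM with p21 and 291.9 ± 4.83 CPM with the empty vector (0.48 ± 0.031, edgeR adjusted p = 3.43e-07). Adam8 (0.54 ± 0.077) and Adam19 (0.31 ± 0.066) rose as well. Adam17, the main sheddase known for Areg, Ereg, Tgfa and Hbegf, fell by 0.18 on the log2 scale (edgeR adjusted p = 0.00415). Adam17 was the only list member that fell, and 2 fell without p21 replicate 1, without p21 replicate 2, with library totals alone and with the replicate block. Of the exon bases of Adam15, 20.6% are shared with a gene on the opposite strand, and of Adam19 10.1%, and the counts do not separate these.

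Of 22 genes that carry the signal inward, 6 rose and 3 fell with p21 (median 0.03), which is 27.3% and 13.6% of the list, against 19.8% and 20.1% of all tested genes; taken in either direction the share is near that of all genes, 39.9%. Shc1, the adaptor that docks on active receptors, stood at 255.0 ± 10.5 CPM in p21 libraries, against 211.9 ± 4.18 CPM in empty vector libraries (0.27 ± 0.035, edgeR adjusted p = 7.77e-05). Map2k1, which encodes the kinase MEK1, rose by 0.24 ± 0.041. Nras, which encodes a RAS protein, fell (-0.19 ± 0.035), while Hras, which encodes another, had a log2 fold change of 0.19 (edgeR adjusted p = 0.00863).

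Of 20 inhibitors of the pathway, 6 rose and 6 fell with p21 (median -0.05; 3 fell without empty vector replicate 1). That is 30% each way, against 19.8% higher and 20.1% lower over all tested genes. Errfi1, whose product MIG6 binds and blocks the EGFR kinase, stood at 143.5 ± 6.95 CPM in p21 libraries, against 185.9 ± 4.83 CPM in empty vector libraries (-0.37 ± 0.039, edgeR adjusted p = 1.37e-05). Dusp4, which encodes a phosphatase of ERK, stood at 76.3 ± 6.09 CPM with p21 and 48.1 ± 3.96 CPM with the empty vector (0.67 ± 0.073, edgeR adjusted p = 1.94e-05). Spred3 (0.33 ± 0.065) and Spry4 (0.27 ± 0.056), of the Sprouty-related inhibitors of RAS-ERK signalling, rose. Their relatives Spred1 (-0.15, edgeR adjusted p = 0.0372) and Spred2 (-0.20, edgeR adjusted p = 0.0303) had log2 fold changes below 0, while Spry1 and Spry2 were not called.

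Of 20 early target genes of growth factor signalling, 2 rose and 7 fell with p21 (median -0.14), which is 10% and 35% of the list, against 19.8% and 20.1% of all tested genes. The number that fell was 3 without empty vector replicate 1 or 2 or p21 replicate 1 or 3, 4 without p16 replicate 2, and 11 with library totals alone. Egr3, a zinc finger transcription factor gene, stood at 6.80 ± 0.745 CPM in p21 libraries, against 11.9 ± 1.20 CPM in empty vector libraries (-0.81 ± 0.098, edgeR adjusted p = 4.22e-05). Ier3 rose (0.47 ± 0.044, edgeR adjusted p = 6.12e-06), as did Phlda1 (0.37 ± 0.056), of whose exon bases 33.0% are shared with a gene on the opposite strand. Nr4a1 fell (-0.20 ± 0.057, edgeR adjusted p = 0.0146), a call lost without empty vector replicate 1 or p21 replicate 1 (highest adjusted p 0.0607). Fos had a log2 fold change of -0.17 (edgeR adjusted p = 0.120) and Egr1 of -0.22 (0.0506), neither called.

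**Figure D5:**
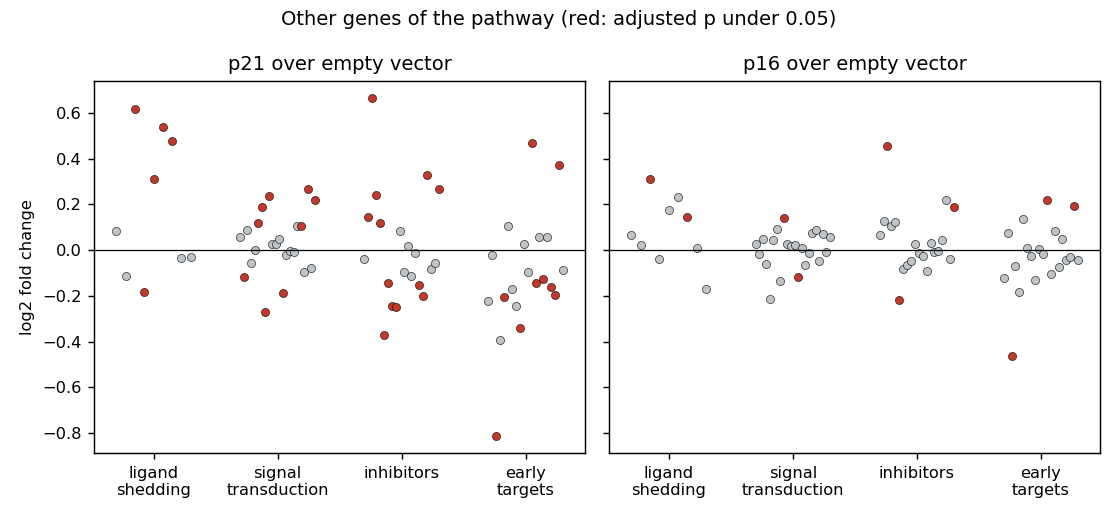
Log2 fold changes of the genes of 4 pathway lists for p21 over empty vector (left) and p16 over empty vector (right); each point is a gene, ordered by name within its list, and red marks an adjusted p under 0.05. With p21, 4 of 9 shedding genes are red above 0, and Egr3 is the lowest point at -0.81; with p16 fewer points are red.

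With p16, 2 shedding genes rose and 0 fell (median 0.07), 1 transduction gene rose and 1 fell (0.02), 2 inhibitors rose and 1 fell (0.01), and 2 targets rose and 1 fell (-0.03). Over all tested genes 5.80% were higher and 5.56% lower, and the transduction list, at 4.55% each way, lay near that share. The shedding genes were Adam15 (0.31 ± 0.035, edgeR adjusted p = 4.09e-04) and Adam9 (0.15 ± 0.031, edgeR adjusted p = 0.0110, and 0.0594 without empty vector replicate 2). Dusp4 rose (0.45 ± 0.073, edgeR adjusted p = 0.00252) and Errfi1 fell (-0.22 ± 0.039, edgeR adjusted p = 0.00450). Ier3 rose (0.22 ± 0.044, edgeR adjusted p = 0.00829) and Egr3 fell (-0.46 ± 0.096, edgeR adjusted p = 0.00980). The remaining calls lay near the threshold: Map2k1 (0.14, edgeR adjusted p = 0.0455), Nras (-0.12, 0.0492), Spry4 (0.19, 0.0466) and Phlda1 (0.19, 0.0419). Map2k1, Nras and Phlda1 were lost whichever of the 6 empty vector and p16 libraries was left out, Nras and Phlda1 also without p21 replicate 1. Spry4 was lost without empty vector replicate 2 or 3, p16 replicate 1 or 2, or p21 replicate 1 (highest edgeR adjusted p 0.165 for these 4). With the replicate block 4 shedding genes rose, 2 transduction genes rose and 3 fell, 5 inhibitors rose and 1 fell, and 3 targets rose and 4 fell.

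Set against p16, p21 gave 3 higher and 1 lower shedding genes, 2 higher and 0 lower transduction genes, and 1 higher and 1 lower each of inhibitors and targets, with 6.15% of all tested genes higher and 6.91% lower. With the replicate block these were 4 and 2, 3 and 2, 3 and 5, and 2 and 4 in the same order. The p21 libraries had higher Adam9 (0.33 ± 0.031, edgeR adjusted p = 3.32e-05), Adam15 (0.31 ± 0.035, edgeR adjusted p = 1.42e-04), Shc1 (0.20 ± 0.035, edgeR adjusted p = 0.00292) and Ier3 (0.25 ± 0.044, edgeR adjusted p = 0.00330). Adam8 was higher as well (0.31 ± 0.076, edgeR adjusted p = 0.0208; lost without p16 replicate 1 or 2 or p21 replicate 2, highest 0.0746), as was Spred3 (0.29 ± 0.065, edgeR adjusted p = 0.0131; 0.0580 without p16 replicate 2). Errfi1 was lower (-0.15 ± 0.039, edgeR adjusted p = 0.0225; lost without p16 replicate 1 or 3 or p21 replicate 2, highest 0.0958). Egr3 was lower too (-0.35 ± 0.099, edgeR adjusted p = 0.0359; lost without empty vector replicate 2, any p16 library, or p21 replicate 1 or 3, highest 0.142). The calls of Adam17 (-0.14, edgeR adjusted p = 0.0436) and Sos2 (0.16, edgeR adjusted p = 0.0405) were each lost in 8 of the 9 fits that left out a library, Adam17 keeping it without empty vector replicate 3 and Sos2 without p21 replicate 2.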

How the data were processed

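Each of the 9 fibroblast RNA-seq libraries (3 with p21, 3 with p16, 3 with the empty vector) is a column of whole-number counts per gene symbol, deposited without normalization. The submitters' processing notes name mm10, TopHat2 2.0.14, Bowtie2 2.2.6 and featureCounts 1.4.6. Annotation and strand setting are not given in the sources used here, and libraries from the labelled kit hold no strand information.

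The fit, by edgeR 4.0.16 under R 4.3.3, used the deposited counts (filterByExpr by group, minimum count 10, minimum total 15; TMM; 1 quasi-likelihood fit by group over all libraries, 6 residual degrees of freedom), with a threshold of 0.05. The common coefficient of variation was 7.30%. SE is the absolute log2 fold change over the square root of F, and 95% intervals use the t distribution with the fit's degrees of freedom. CPM used TMM-scaled totals, marker sums plain totals, and RPKM the exon union of GENCODE M21 (GRCm38), which may differ from the authors' annotation. Log2 CPM used a prior count of 2.

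The 9 members and all lists were chosen with earlier results of these data known. Named genes are the members and the rest of the family, and up to 4 called genes with the smallest adjusted p per pathway list and comparison; others (Hras, Spred1, Spred2, Fos, Egr1, Adam17 with p21) were picked after their values were seen. Some genes that this rule names are not reported here. Alternatives were RLE size factors, library totals, no filter, DESeq2 1.42.0, limma-voom (limma 3.58.1), a fit of just the 2 groups in question, a replicate block, replicates 1 and 2 only, and each library left out. After removal of group means, libraries with the same replicate number correlated at r = 0.126 to 0.361 across genes and others at -0.246 to 0.106. Replicate 3 stood apart most, at 0.332 to 0.361 with its own number and -0.246 to -0.163 with replicates 1 and 2. Between replicates 1 and 2 the gap was small, 0.126 to 0.202 for the same number and 0.0477 to 0.106 for the other. The numbers thus pair replicate 3 clearly and replicates 1 and 2 weakly. What they stand for is not in the labels.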

Additional observations from a re-analysis of the deposited data

How the results depend on the processing

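Over 17 alternatives, 27 member results gave 459 values, of which 416 kept direction and side of the threshold, 11 lost the call, 16 gained it and 16 changed sign. The 416 include the DESeq2 results of Btc and Erbb3 with p16 and in p21 against p16. These had no adjusted p and were counted as not called. None of the 6 called member results changed sign. Precision is limited by depth for Btc, Erbb3, Tgfa and Areg.

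With p21 against the empty vector, 5 of the 9 genes were called, and 2 to 5 without 1 library. With p16 against the empty vector 0 were called, 1 by DESeq2, 1 with only the 2 groups compared (Erbb2), 3 with the replicate block, 2 with replicates 1 and 2 only (Hbegf and Erbb2), and 0 to 1 without 1 library. In p21 against p16 1 was called, 2 by DESeq2, 4 with the replicate block, 3 with replicates 1 and 2 only (Erbb2, Ereg at an edgeR adjusted p of 0.00496 and Egfr at 0.00930), and 1 to 2 without 1 library. Over all genes the replicate block raised the calls with p16 to 3044 (1616 unblocked) and those between p21 and p16 to 3214 (1858 unblocked). Leaving out 1 library gave 4617 to 5659 calls with p21 (5681 with all libraries), 759 to 1894 with p16, and 1074 to 1810 in p21 against p16. The replicate block gained the calls of Hbegf, Egfr and Erbb2 with p16 and of Ereg, Hbegf and Egfr in p21 against p16, and changed no other member call.

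Sign changes were all in uncalled results near 0. With p21 against the empty vector Tgfa (0.03) became -0.016 with library totals, -0.0021 by limma-voom, and -0.11 to 0.24 without 1 library (-0.10 without empty vector replicate 3, -0.11 without p21 replicate 1 and -0.06 without p21 replicate 2). With p16, without 1 library, Btc (0.05) ranged from -0.21 to 0.26 (-0.10 without p16 replicate 2), Tgfa (-0.07) from -0.21 to 0.052, Ereg (0.07) from -0.056 to 0.18 (-0.05 without p16 replicate 1) and Nrg1 (-0.06) from -0.13 to 0.020. In p21 against p16 Erbb3 (-0.0077) became 0.044 with replicates 1 and 2 only and ranged from -0.35 to 0.33 without 1 library (0.12 and 0.24 without p16 replicates 1 and 3), and Tgfa (0.10) from -0.045 to 0.31. The cause of these changes was not tested. Counts of called genes in the pathway lists were run under the same alternatives after the data were seen.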
